A study of Mus musculus with 6 samples.

Results

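Kcnip4 and Kcnb2 are potassium channel genes of the mouse, and the transcripts described here are long non-coding RNA (lncRNA) entries whose interval lay in the body of either gene more than in that of any other GENCODE M21 gene. By that rule 16 of the 3093 transcripts in the deposited table were members, 10 in Kcnip4 and 6 in Kcnb2. RNA came from pancreatic islets, the endocrine cell clusters of the pancreas, of C57BL/6 mice kept for 8 weeks on normal chow (NCD, 3 libraries) or on what the labels call a high-fed diet, abbreviated HFD (3 libraries). The labels say nothing on age, sex or how many mice gave each library. The table holds 1 FPKM per transcript and diet (fragments scaled to transcript length and to sequencing depth), so no value below has a standard deviation, and no difference between diets could be tested against the spread between mice. A host gene's name says where a transcript lies and not that the messenger RNA of the gene was measured.

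Voltage-gated potassium channels let potassium leave a depolarised cell and so end its action potentials, which in beta cells limits calcium entry and insulin release. Kcnip4 encodes KChIP4, a calcium-binding protein of the neuronal calcium sensor family that attaches to Kv4 channel subunits and alters their gating and surface expression. Its isoforms begin at alternative first exons, which give the protein different N-termini. Kcnb2 encodes Kv2.2, a pore-forming subunit of delayed rectifier channels that can assemble with Kv2.1 and with electrically silent subunits. Both genes are best known from neurons.

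Kcnip4 lies on the minus strand of chromosome 5 (GRCm38, 48389502 to 49524907, 1135 kb) and has 8 annotated isoforms. All 10 of its transcripts lay in the first intron of the longest isoform, an intron of 1015 kb. They also lay downstream of the isoform start site at 49285659, which is 15.7 kb from the nearest member, and upstream of 4 further isoform start sites, of which those at 48754570 and 48754564 are the nearest and that at 48599682 is farther on. None of the 10 touched an exon of Kcnip4. The promoter windows at 49285659 and 48599682, one on each side of the members, are given from RefSeq (GRCm38.p6, minus strand, 250 bases before to 50 after the start). Capitals mark CCAAT on either strand, and TATAAA and GGGCGG were searched on both strands as well.
Kcnip4 start at 49285659, chr5:49285610-49285909: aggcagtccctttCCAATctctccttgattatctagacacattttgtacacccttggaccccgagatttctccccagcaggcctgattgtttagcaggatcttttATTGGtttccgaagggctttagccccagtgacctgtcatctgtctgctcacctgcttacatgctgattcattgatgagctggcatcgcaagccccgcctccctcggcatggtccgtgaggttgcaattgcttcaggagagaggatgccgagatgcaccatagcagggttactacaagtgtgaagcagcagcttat
Kcnip4 start at 48599682, chr5:48599633-48599932: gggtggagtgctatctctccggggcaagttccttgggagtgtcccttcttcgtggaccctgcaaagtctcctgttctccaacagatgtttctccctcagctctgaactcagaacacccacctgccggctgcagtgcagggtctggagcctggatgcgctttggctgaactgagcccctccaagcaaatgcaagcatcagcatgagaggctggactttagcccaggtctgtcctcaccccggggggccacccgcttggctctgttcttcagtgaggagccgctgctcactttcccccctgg
The first window held CCAAT at 2 places and the second at none. Of 32851 promoter windows of this length, 37.4% held CCAAT, 13.6% held TATAAA and 35.7% held GGGCGG. Neither Kcnip4 window had these letters for the last 2 motifs.

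One member, chr5:49114880-49130280, also took in the whole of Gm42769 and Gm42770, a pair of single-exon gene models on the minus strand that GENCODE places in its TEC class of models awaiting experimental support. The last 100 bases of each (GENCODE M21 transcripts, GRCm38) are printed because these models are the only annotated exons inside any member. Capitals mark AATAAA, the usual polyadenylation signal, on the transcribed strand.
Gm42769, chr5:49115759-49115858: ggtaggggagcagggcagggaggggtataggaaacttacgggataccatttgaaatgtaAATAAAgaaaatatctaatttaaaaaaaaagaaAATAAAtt
Gm42770, chr5:49124587-49124686: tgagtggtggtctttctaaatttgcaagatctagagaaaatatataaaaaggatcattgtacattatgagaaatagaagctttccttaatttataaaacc
AATAAA stood at 2 places in the first tail and was not found in the second. Of 3292 TEC transcripts of at least 100 bases, 25.4% held it in the last 100 bases.

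Kcnb2 lies on the plus strand of chromosome 1 (15287254 to 15723750, 436 kb) and has 2 annotated isoforms. All 6 of its transcripts lay in a single intron of 396 kb (15313031 to 15709484) between coding exons. The 30 coding bases on each side of that intron, from the GENCODE isoform that starts at 15312452, show the junction that holds all 6 members (GRCm38, plus strand).
Exon end before the intron, chr1:15313001-15313030: gagaaacctaactcgtccgtggctgcaaag
Exon start after the intron, chr1:15709485-15709514: atcctggccatcgtgtctatcctgttcatc

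Most transcripts of the table were lower in HFD, and each member is read against that. The median transcript had 2.53 FPKM under NCD against 1.42 under HFD. The sum of FPKM over the table went the other way, at 15448 under NCD against 17702 under HFD. The highest single value was 1450 FPKM under NCD and 5721 under HFD. The direction of the sum can thus rest on 1 entry and does not describe the table as a whole. Each difference is given as a log2 ratio, log2 of (HFD + 0.1) over (NCD + 0.1), whose median over the table was -0.82. Of all transcripts 20.0% were higher in HFD at any size, 41.9% were at least 2-fold lower and 6.27% at least 2-fold higher. Among intronic transcripts, those lying in a gene without touching an annotated exon, 13.5% were higher. In bulk islets, a lower value from fewer cells of a type and one from less RNA per cell cannot be told apart. Of 47 cell type markers only 3 held a transcript (Isl1, Pax6 and Epcam), and all 4 transcripts in these were lower in HFD as deposited. None of the 8 beta cell markers and none of the 6 neural and Schwann cell markers did, so neither the islet identity nor the share of nerve cells could be checked in this table.

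Kcnip4 transcripts stood higher in HFD relative to NCD than those of most other genes in the table. Its 10 transcripts were split evenly as deposited, 5 higher and 5 lower in HFD, and their median log2 ratio was -0.09. After centring on the table's median of -0.82, 9 of the 10 lay above 0 and the gene's median was 0.73. With 0.1 added, none of the 10 differed by 2-fold; without it, 1 did (ratio 2.15). In HFD 9 of 10 were above the table's median FPKM, against 8 of 10 in NCD.

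The 5 transcripts that were higher in HFD were the 5 nearest to the 5′ end of the gene. Going downstream, the first was chr5:49231857-49269922, with 4.94 FPKM under NCD against 5.42 under HFD (log2 ratio 0.13). It began 255 kb from the 5′ end of the gene and ranked 586th of the table in NCD and 191st in HFD, the highest HFD level of the 16 members. The second, chr5:49153549-49215746, was at 3.54 and 3.75 FPKM (0.08). Inside it lay a shorter transcript of the same locus, chr5:49159425-49176330, at 0.408 and 0.877 FPKM (0.94). That was the largest upward ratio of the members and the lowest level. Values of overlapping isoforms of 1 locus depend on how fragments were divided between them and are uncertain for that reason.

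The other two of these 5 lay end to end with 247 bases between them. The one nearer the 5′ end, chr5:49114880-49130280, which takes in the TEC models printed above, had 1.64 FPKM under NCD against 1.74 under HFD (log2 ratio 0.08). Its neighbour, chr5:49094314-49114632, had 3.42 and 4.05 FPKM (0.24). Apart from the overlapped isoform at 0.94, the upward ratios of Kcnip4 thus ran from 0.08 to 0.24, which is small beside a table whose median was -0.82.

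After a stretch of 141 kb without a listed transcript, the 5 lower ones followed. The pair upstream of the isoform start site at 48889557 was chr5:48952306-48953784, at 2.83 FPKM under NCD against 1.58 under HFD (log2 ratio -0.80), and chr5:48939499-48940565, at 5.84 and 3.70 (-0.65). The latter had the highest NCD level of the gene. Downstream of that start lay chr5:48855666-48859605 at 3.38 and 2.70 FPKM (-0.31). It was followed by chr5:48817753-48819418 at 3.28 and 1.78 (-0.84), the only Kcnip4 transcript below the median of the table. The last, chr5:48762112-48762975, was at 4.27 and 3.55 FPKM (-0.26). Totals of about 57400000 fragments for NCD and 74300000 for HFD were fitted so that low values fell near whole fragments. At its span of 864 bases, the last transcript then stands for about 144 fragments in NCD and 155 in HFD. The 95% counting interval of its log2 ratio without the added 0.1, -0.61 to 0.07, includes 0. It covers counting error only and holds if each column was counted from 1 pool.

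**Figure D1:**
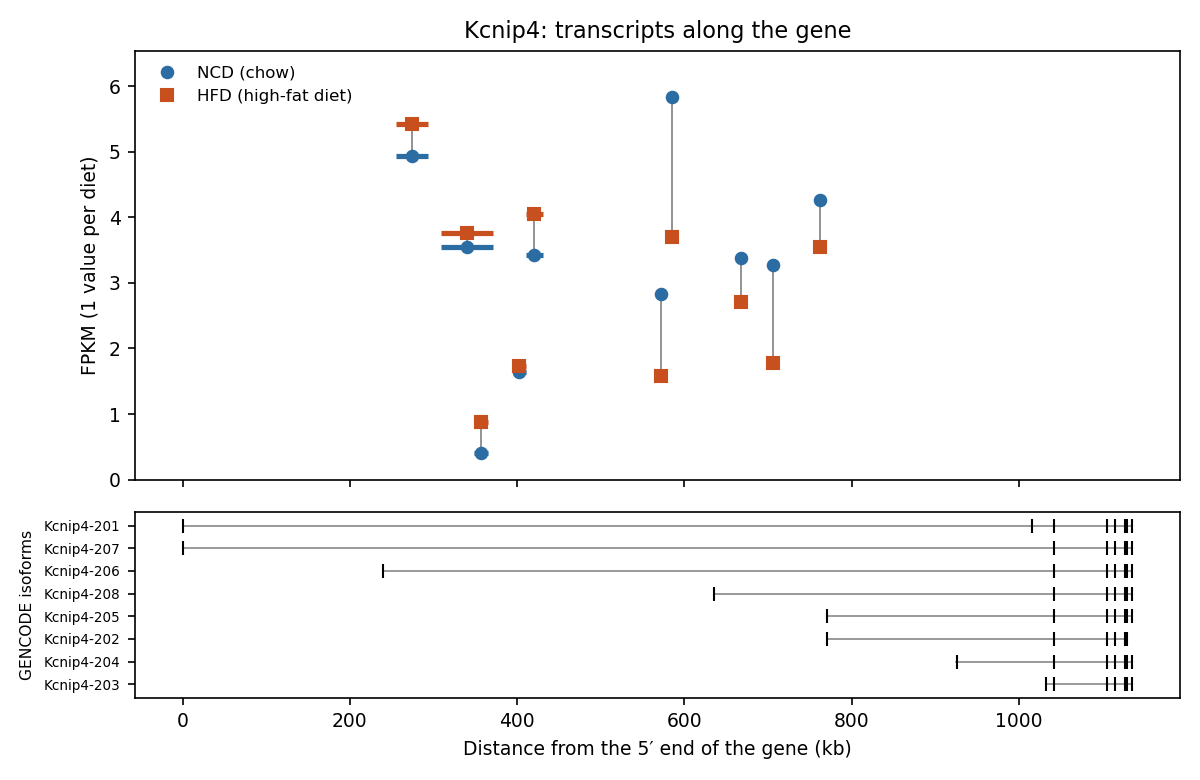
FPKM of the 10 Kcnip4 transcripts (vertical axis) by distance from the 5′ end of the gene in kb (horizontal axis), as circles for NCD and squares for HFD with bars for the span and a grey line joining the diets; the lower panel shows the 8 GENCODE isoforms with exons as black marks. The 5 transcripts nearest the 5′ end have the square above the circle and the other 5 have it below, in values as deposited.

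Position and span went together in Kcnip4. The 5 higher transcripts had spans of 15.4 to 62.2 kb and the 5 lower ones spans of 0.864 to 3.94 kb, so the log2 ratios of the long ones (0.08 to 0.94, median 0.13) and of the short ones (-0.84 to -0.26, median -0.65) did not overlap. This split was drawn after the values were seen. Position along the gene and span cannot be told apart as its source, and the exon structure behind a long interval is not given in the table. Across the 10 transcripts Spearman's rho was -0.70 between position from the 5′ end and log2 ratio, 0.71 between span and log2 ratio, and -0.85 between position and span. These transcripts share a gene and the same 2 columns of values, so the rho values only describe them.

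Longer intervals in other genes also had somewhat higher ratios, though most were lower in HFD. Of the 48 intronic transcripts of 15 kb or more in other genes, 5 (10.4%) were higher in HFD, and their median log2 ratio was -0.77. Of the 1362 intronic ones of at least 400 bases and under 5 kb, 143 (10.5%) were higher, with a median of -0.99. Counting intervals that touch exons as well, as 1 of the 5 long Kcnip4 members does, 34 of 175 (19.4%) in other genes at 15 kb or more were higher, with a median of -0.68. The short Kcnip4 transcripts had a median of -0.65, above the -0.99 of intronic ones of 400 bases to under 5 kb. It was nearer to the -0.86 at 1 to under 5 kb, where most of them lay and where the SD was 0.65. Among 51 genes with at least 6 transcripts, rho of span and log2 ratio was above 0 in 39, and Kcnip4 ranked 13th from the highest. Its rho with position ranked 6th from the lowest of the same 51. Only 3 genes held at least 2 transcripts of 15 kb or more and at least 2 under 5 kb. In Mecom, a zinc-finger transcription factor gene, the long pair had a median of -0.65 and the 13 short ones -1.33. In Sgcz, a sarcoglycan gene, the 3 long ones had -1.20 and the 5 short ones -1.48. The long median was above the short one in all 3 genes, and of the 3, Kcnip4 alone had long transcripts that were higher in HFD as deposited.

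**Figure D2:**
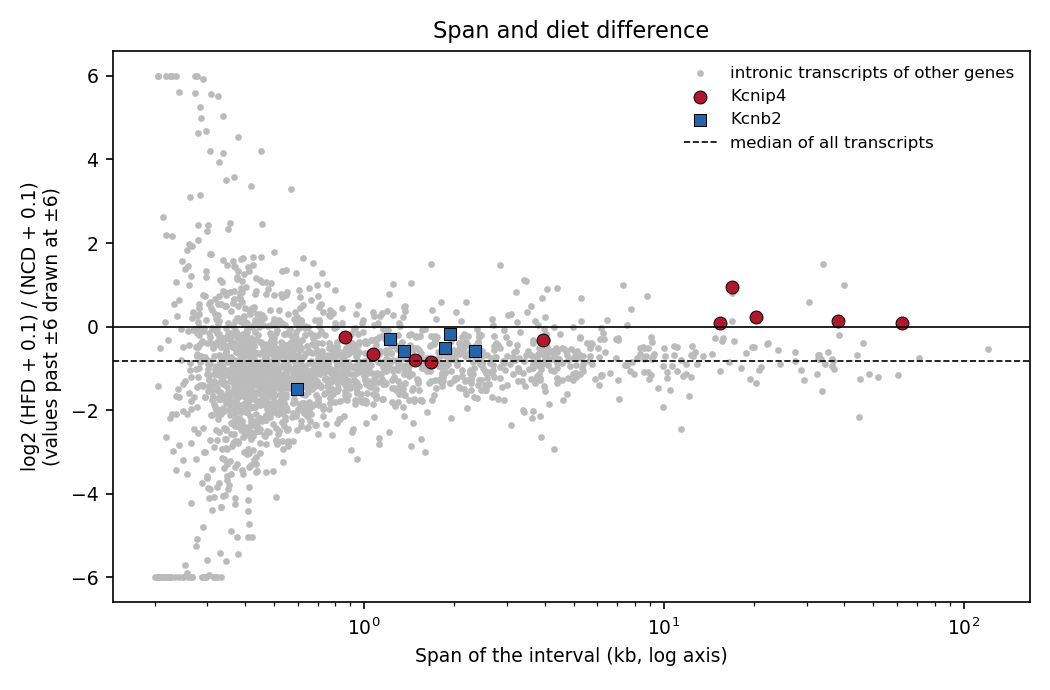
log2 ratio of HFD over NCD (vertical axis, 0.1 FPKM added) by span of the interval in kb (horizontal log axis) for the Kcnip4 and Kcnb2 members and for intronic transcripts of other genes in grey. The 5 Kcnip4 circles at spans of 15.4 kb and more lie above 0 as deposited, where 5 of the 48 grey points of that length do; the grey points leave out intervals that touch exons, which 1 of the 5 circles does, and with those included 34 of 175 lie above 0.

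A further transcript near the 3′ end of Kcnip4, chr5:48411409-48412403, was no member because it lay wholly in Kcnip4 and equally in 5730480H06Rik, a gene of the other strand. It was at 1.62 FPKM under NCD against 1.81 under HFD (log2 ratio 0.15).

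All 6 Kcnb2 transcripts were lower in HFD as deposited, with a median log2 ratio of -0.54. Being lower was common, at 80.0% of the table and 1777 of 2054 intronic transcripts. Of intronic transcripts of 1 to under 5 kb in other genes, where most Kcnb2 spans lay, 459 of 500 were lower. All 6 being lower is thus near the share of like transcripts. After centring on the table's median, 5 of the 6 lay above 0 and the gene's median turned to 0.28. In order from the 5′ end, chr1:15466605-15467824 was at 2.90 FPKM under NCD against 2.34 under HFD (log2 ratio -0.30). The next, chr1:15470699-15471293, which lay 2874 bases on, was at 6.29 and 2.15 (-1.50). With 0.1 added it was the only one of the 16 members past 2-fold, and it was the only Kcnb2 transcript below the table's median. It had the highest NCD level of all 16, ranking 406th of the table in NCD and 864th in HFD.

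At its span of 595 bases this transcript stands for about 115 fragments in NCD and 51.2 in HFD. The 95% counting interval of its log2 ratio without the added 0.1 was -2.06 to -1.07. It covers counting error only, for a transcript singled out as the most extreme of the 16, and says nothing of the spread between mice. It was also the shortest of the 16 members, and the median log2 ratio of intronic transcripts of at least 400 bases and under 1 kb in other genes was -1.10.

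The other four lay farther downstream. The transcript chr1:15489539-15491402 had 2.02 FPKM under NCD against 1.40 under HFD (log2 ratio -0.50). Next along the intron, chr1:15537104-15538461 had 2.48 and 1.63 FPKM (-0.58). At chr1:15565252-15567191 the values of 1.99 and 1.76 FPKM differed least (-0.17). The last, chr1:15608160-15610511, was at 1.82 and 1.17 (-0.59). Outside the 595-base transcript the NCD levels of Kcnb2 ran from 1.82 to 2.90 FPKM and the HFD levels from 1.17 to 2.34, with the HFD value below the NCD value of the same transcript in each of the 5. Ratio and position were not ordered together in Kcnb2 (Spearman's rho -0.03 over 6 transcripts).

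**Figure D3:**
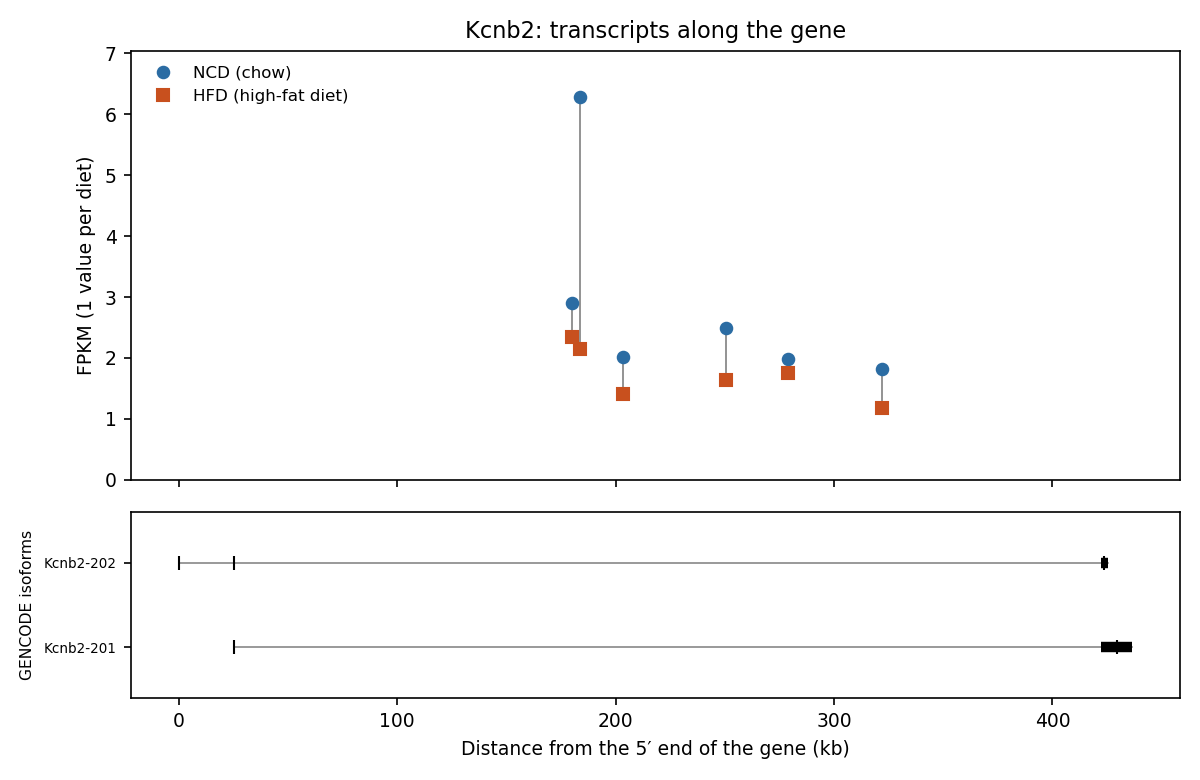
FPKM of the 6 Kcnb2 transcripts (vertical axis) by distance from the 5′ end of the gene in kb (horizontal axis), circles for NCD and squares for HFD joined by a grey line; the lower panel shows the 2 GENCODE isoforms with exons in black. The HFD square lies below the NCD circle in all 6 as deposited, and the gap is widest at 6.29 against 2.15 FPKM.

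The members in Kcnip4 had the higher median level. It was 3.40 FPKM under NCD against 3.13 under HFD, and the Kcnb2 members had 2.25 and 1.69, although the highest NCD value of the 16 was in Kcnb2. Among the 107 genes holding at least 4 transcripts, 71 had every transcript lower in HFD as deposited. By median log2 ratio Kcnip4 ranked 7th and Kcnb2 14th from the highest. Taking likeness as the summed difference in the median and in the SD of log2 ratios over a gene's transcripts, the genes nearest to Kcnip4 were Ctnna2, Ccdc85a and Rnls. Ctnna2, an alpha-catenin gene, had a median of -0.38 with 1 of 7 transcripts higher (summed difference 0.31). Ccdc85a had -0.24 with 1 of 4 higher (0.34), and Rnls, the renalase gene, -0.07 with 2 of 4 higher (0.36). Nearest to Kcnb2 were the cAMP phosphodiesterase gene Pde4d (-0.58, 2 of 6 higher, 0.06), the slingshot phosphatase gene Ssh2 (-0.66, 0 of 4 higher, 0.17) and the zinc-finger gene Casz1 (-0.70, 0 of 4 higher, 0.18). Each rests on 2 columns of values only.

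**Figure D4:**
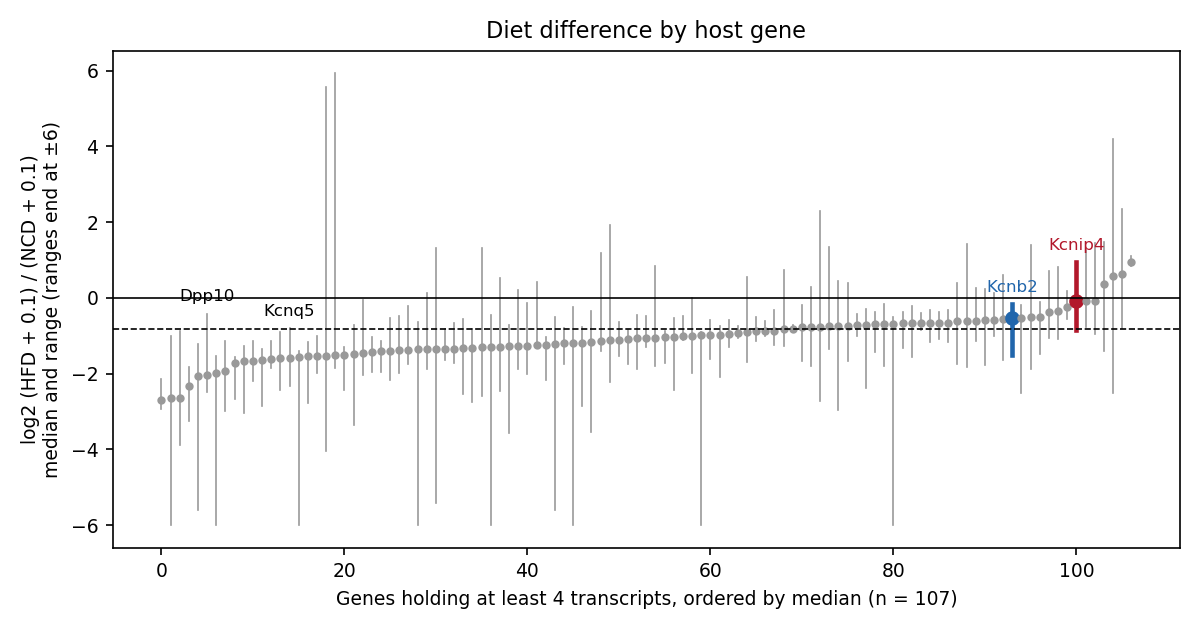
Median (points) and range (lines, ending at ±6) of the log2 ratio of HFD over NCD in each of the 107 genes holding at least 4 transcripts, ordered by median; the dashed line is the median of all transcripts. Kcnip4 (median -0.09) and Kcnb2 (-0.54) stand above the dashed line at -0.82, and Dpp10 and Kcnq5 below it.

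Among the partners of these channels, most listed transcripts lay in Dpp10 and were lower in HFD. The Kv4 complex list held 9 genes (Kv4 pore subunits, KChIPs and the DPP-like proteins that join them). Outside Kcnip4, 4 of its genes held 11 transcripts, 10 lower and 1 higher in HFD, with a median of -2.01; 7 of the 11 were in Dpp10. All 7 transcripts in Dpp10, which encodes a transmembrane auxiliary subunit of Kv4 channels, were lower as deposited, and 6 of the 7 lay below the table's median. Their NCD levels were 0.590 to 2.95 FPKM and their HFD levels 0.376 to 0.572. The transcript with the smallest difference, chr1:123553792-123555886, was at 0.590 and 0.417 FPKM (-0.42).

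The other KChIP genes with a transcript held 1 each. In Kcnip3, which encodes KChIP3 (also known as calsenilin or DREAM), it was at 3.08 FPKM under NCD against 1.19 under HFD (log2 ratio -1.30). In Kcnip1 it touched annotated exons and was at 2.27 and 1.36 (-0.70), lower as deposited but above the table's median after centring. Kcnd3, the Kv4.3 pore subunit gene, held a 229-base interval listed at 0 in NCD and 16.3 FPKM in HFD and a 316-base interval at 6.60 in NCD and listed at 0 in HFD. Intervals this short are near or below the fitted fragment length (278 bases in NCD, 276 in HFD), where FPKM is a poor guide to fragments. No fragments are given for them, and the pair gives no direction for the gene. Of the 15 genes of Kv2 subunits, silent subunits and Kv2-binding proteins, Kcnb2 was the only one to hold a transcript.

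Among 34 other voltage-gated potassium channel genes, 3 held 10 transcripts, 9 lower and 1 higher (median -1.59). The list was mostly Kcnq5, a gene of the M-type channel family singled out after its values were seen, with all 8 lower (-2.31 to -0.80) and 7 of 8 below the table's median. Kcnq5 levels were low, at 0.482 to 1.20 FPKM in NCD and 0.063 to 0.390 in HFD. The HFD values lie near the added 0.1, which limits these ratios. The 2 entries of the list with the highest mean FPKM were in Kcnh1 and Kcnab1. The Kcnh1 interval of 284 bases was listed at 0 in NCD and 3.69 FPKM in HFD, and its fragments are not given, as in Kcnd3. The transcript in Kcnab1, a Kv beta subunit gene, was at 1.49 and 0.424 (-1.60). Of 43 genes of other potassium channels, Kcnmb2 and Kcnj3 held 3 transcripts, all lower as deposited. The most abundant were in Kcnmb2, a subunit gene of calcium-activated BK channels, at 5.06 and 3.27 FPKM (-0.61), which lay above the table's median, and in Kcnj3, an inward rectifier gene, at 2.99 and 0.424 (-2.56).

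The calcium and sodium channel list had 11 of 12 transcripts lower as deposited (median -0.57), but 7 of 12 above 0 after centring. Its entries with the highest mean FPKM were a 248-base interval in Cacnb4 and a Trpm3 transcript at 5.76 and 3.83 (-0.58). The Cacnb4 interval was at 20.4 FPKM in NCD and listed at 0 in HFD. At that length its fragments are not given, as in Kcnd3, and it gives no direction for the gene. The exocytosis list had 4 of 4 lower (median -1.61), of which the most abundant were in Rims2, an active zone scaffold gene, at 3.09 and 1.05 FPKM (-1.47) and Exoc4, an exocyst subunit gene, at 2.48 and 1.33 (-0.85). As in Kcnip1, the named transcripts of Kcnab1, Kcnmb2, Trpm3 (5.76 FPKM), Rims2 and Exoc4 touched annotated exons, as did 1 Kcnip4 member through its TEC models. Over all 159 listed genes, 20 genes other than Kcnip4 and Kcnb2 held 40 transcripts, of which 37 were lower and 3 higher as deposited. Of the 3, those in Kcnd3 and Kcnh1 were short intervals listed at 0 in NCD. Of the 40, 27 lay below the table's median. Dpp10 with 6 of 7 and Kcnq5 with 7 of 8 below it weigh heavily in that count. The members had 14 of 16 above the table's median. No test was run on this contrast, since transcripts of 1 gene are not independent and the genes were proposed with results of this table known.

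**Figure D5:**
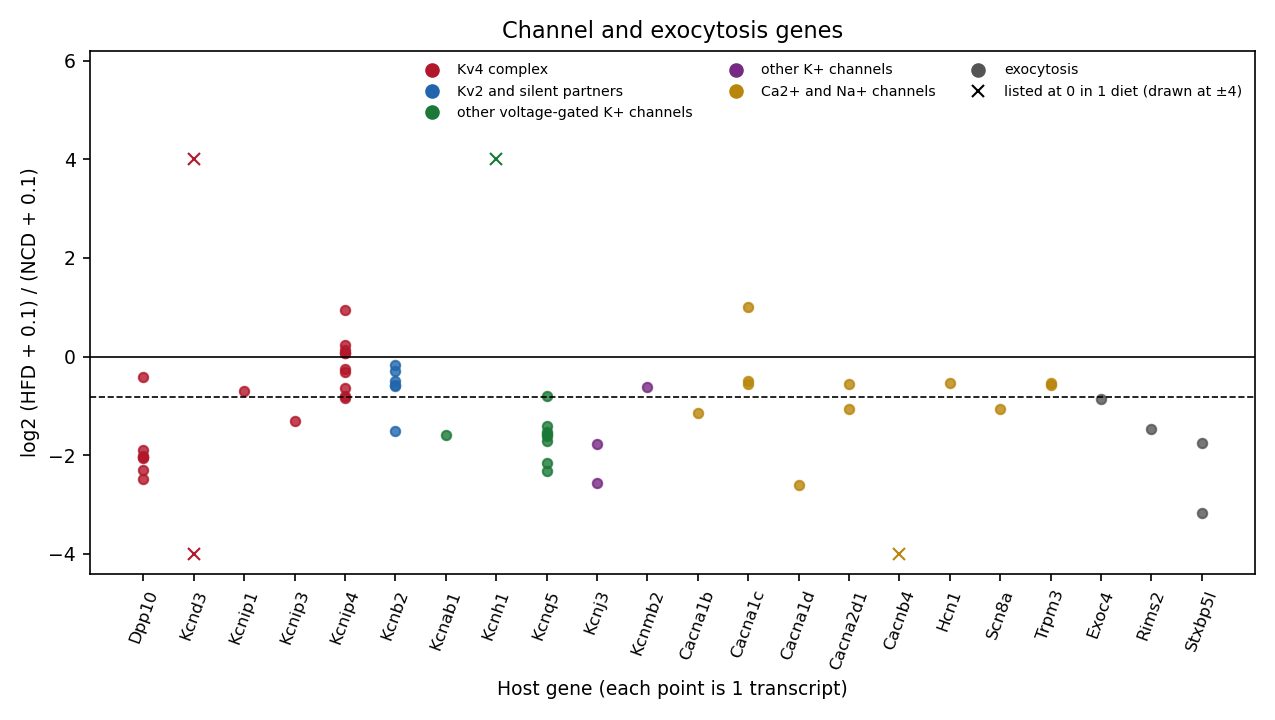
log2 ratio of HFD over NCD (vertical axis, 0.1 FPKM added) of every transcript in the channel and exocytosis genes that held one (horizontal axis), coloured by list, with crosses at ±4 for intervals listed at 0 in 1 diet and a dashed line at the table's median. Kcnip4 spans -0.84 to 0.94 and Kcnb2 -1.50 to -0.17, and in Dpp10 and Kcnq5 all but 1 transcript each lie below the dashed line.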

How the data were processed

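The labels describe total RNA from mouse islets made into Illumina TruSeq libraries. The authors deposited 1 table of FPKM with 1 column per diet, per the file headers, and how the libraries of a diet were combined, and with which aligner and assembler reads were processed, is not given in the sources used here. Builds GRCm38 and mm10 are named by the submitters' processing notes. Intervals were placed on GENCODE M21 (GRCm38). The gene with the largest overlap named a transcript, and 153 with equal overlap were left unnamed. Fragment totals were fitted to FPKM below 8 fragments in spans of 300 to 700 bases, counting a value within 0.15 of a whole number as whole. In NCD 59.1% were whole and in HFD 76.2%, against 30% for evenly spread values. Total and fragment length were chosen for the largest excess of the share over 30%, weighted by the square root of the number of values. The shares therefore lie above 30% partly by choice and are no check on the totals. Totals ranged from 57300000 to 64800000 fragments for NCD and 74300000 to 77100000 for HFD when fitted to alternate rows. Fragments are given for spans of 400 to 1000 bases, unspliced. The depth fit and gene assignment were tested on simulated data. Every member is named, with the 3 most alike genes, all genes of the 2 nearest lists and the 2 transcripts of highest mean FPKM of the others. Members and lists were chosen with earlier results of these data known. Sequence features of the intervals were not analysed here. Python 3.11.15, pandas 2.3.3 and scipy 1.17.1 were used.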

Additional observations from a re-analysis of the deposited data

How the results depend on the processing

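No paired analysis was possible because each diet has a single FPKM column, and for the same reason no replicate was left out and no model was fitted. Scaling mattered most: the Kcnip4 median log2 ratio of -0.09 was 0.73 after median centring and 0.73 after quantile normalization, and the Kcnb2 median of -0.54 was 0.28 and 0.27. Transcripts above 0 then numbered 9 and 8 in Kcnip4 (5 as deposited) and 5 and 5 in Kcnb2 (0 as deposited). Members at least 2-fold lower went from 1 to 0 under both, and members at least 2-fold higher from 0 to 2 and 3, and to 1 with a pseudocount of 0.01. With at least 1 FPKM in either diet, with wholly intronic intervals only, or with 1 transcript per locus, 9 Kcnip4 transcripts were left and their median was -0.26, -0.26 and -0.26. A pseudocount of 1 moved the Kcnb2 median to -0.35. Spans of at least 400 bases removed no member. Depth limits the values of short intervals most.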

Other observations

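Transcript numbers in the table ran over each of the 20 chromosomes (autosomes and X) in exactly 2 passes of broadly rising position, a pattern noticed after the data were seen. A new pass was counted only where the position dropped by over 3 Mb, so smaller falls within a pass were ignored. Of 1940 intronic transcripts in a single leading gene, 1813 (93.5%) lay in the first pass when the gene was on the plus strand and in the second when it was on the minus strand. All 10 Kcnip4 members (minus strand) stood in the second pass and all 6 Kcnb2 members (plus strand) in the first. The transcript shared by Kcnip4 and 5730480H06Rik, a plus-strand gene, stood in the first. Of 440 transcripts touching exons of 1 strand only, 190 (43.2%) followed the strand of those exons. The table itself gives no strand.

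Locus numbers of the members were close together. Kcnip4 members took 9 of 35 consecutive locus numbers, and Kcnb2 members 6 of 9. The numbers between belonged to no transcript of the table.

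Within the table, a long transcript in Cacna1c, the gene of an L-type calcium channel pore subunit, resembled the overlapped Kcnip4 isoform in its values. It was chosen after its values were seen. The 39837-base interval chr6:118961510-119001346 was at 0.442 FPKM under NCD against 0.983 under HFD (log2 ratio 1.00), while the other two Cacna1c transcripts, one of which lay inside it, were at -0.50 and -0.56.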
